A study of Mus musculus with 15 samples.

Results

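The KLF factors other than Klf1 are described here: Klf2, Klf3, Klf4, Klf6, Klf7, Klf9, Klf10 and Klf13, which are 8 of the 18193 mouse genes with a single symbol on the array. Members were the probe sets whose symbol in the platform annotation was exactly one of these names. There are 30 of them among 34945 probe sets with a single symbol: 7 each for Klf3 and Klf9, 5 for Klf6, 4 for Klf7, 3 for Klf13, 2 for Klf4 and 1 each for Klf2 and Klf10. No probe set with several symbols names a member.

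The study measured RNA of acute myeloid leukemia (AML) cells, taken from leukemic spleens, on 15 Affymetrix Mouse Genome 430 2.0 arrays. The leukemia has the genotype NRASG12V/Mll-AF9, an oncogenic NRAS together with the MLL-AF9 fusion, and was carried by SCID/Beige mice, a strain that lacks functional T and B lymphocytes, after injection through the tail vein and about 20 days of growth. The RAS-OFF groups, 2 arrays each at 48, 60, 72, 84 and 96 h, received doxycycline by intraperitoneal injection and in the drinking water, which stops the NRASG12V expression. The RAS-ON group, 5 arrays labelled 0 h, had the same genotype and received vehicle. No array shows vehicle at a later time, or doxycycline in a leukemia without the NRAS transgene. In every RAS-OFF minus RAS-ON change, loss of NRASG12V, doxycycline itself and elapsed time thus cannot be told apart. All groups share the Mll-AF9 fusion, so no array shows the genes in cells without it. The sources used here do not give the promoter that drives the NRAS transgene. The labels do not say that replicates are separate animals, so each p-value reflects only how far these arrays vary, part of which may be technical.

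KLF proteins (Krüppel-like factors) bind GC boxes and CACCC boxes in promoters and enhancers through a zinc finger domain at the C terminus that is shared across the family, while the N-terminal parts differ. Those of Klf2, Klf4, Klf6 and Klf7 mainly activate transcription and recruit acetyltransferases, that of Klf3 recruits the CtBP co-repressors, and those of Klf9, Klf10 and Klf13 recruit the SIN3 co-repressor. In blood, Klf4 promotes monocyte differentiation, Klf2 keeps T cells quiescent, and Klf3 acts in the erythroid lineage, where its gene is a target of Klf1.

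Values are log2 of the deposited intensities, and each gene is represented by its brightest probe set unless another is named. Changes are RAS-OFF minus RAS-ON with the standard error of the fit, from limma with Benjamini-Hochberg adjustment over all 18193 genes. Values of single probe sets come from the same fit on all 34945 probe sets. An adjusted p below 0.05 is a call. A level of one probe set cannot be set against that of another. In these bulk samples fewer cells of a type and less RNA per cell cannot be told apart.

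Array medians lay between 7.23 and 7.29 on the log2 scale. Nras, whose probe sets may read both the endogenous gene and the transgene, lay at 10.34 to 10.96 in RAS-OFF arrays and 10.72 to 11.19 in RAS-ON arrays, a change of -0.31 ± 0.09 (adjusted p = 0.00725, limma). The RAS-ON arrays form 2 sets, arrays 1 to 3 and arrays 4 and 5: the SD of the log2 difference over all genes was 0.166 to 0.219 within a set and 0.236 to 0.302 between sets. Changes over all times are given against each set for Klf4, Klf6, Klf9, Klf10 and Klf13. Against arrays 1 to 3 and arrays 4 and 5, the uncalled change of Klf2 was -0.013 and -0.098. That of Klf7 was 0.080 and -0.062, and the rise of Klf3 was 0.98 and 1.23. Changes of genes other than the members are not given by set, so their stability to this division is not shown. In RAS-OFF 96 h replicate 1 the control probes for the 3' end of Gapdh exceeded those for its 5' end by 1.22 log2 units, against 0.099 to 0.355 in the other arrays. All 9 measured myeloid leukemia markers lay above the array medians on average, Ptprc (CD45) at 13.25 in RAS-OFF and 13.08 in RAS-ON arrays.

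Of the 8 genes, 1 rose (Klf3), 3 fell (Klf4, Klf10 and Klf13) and 4 did not pass the test over all RAS-OFF times. Among all genes 20.1% were called higher and 28.7% lower, 48.8% in either direction, so a count of 4 in 8 is near the background. The median change of the 8 was -0.16, against -0.04 over all genes. In Klf3 all 10 RAS-OFF arrays lay above all 5 RAS-ON arrays, as in 9.36% of all genes, and in Klf4 all lay below, as in 12.0% of all genes (21.3% for both directions). Klf2, Klf6 and Klf7 were not called over all times but declined within the RAS-OFF arrays, and in Klf9 the RAS-ON arrays spread over a wider range than the RAS-OFF arrays.

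**Figure D1:**
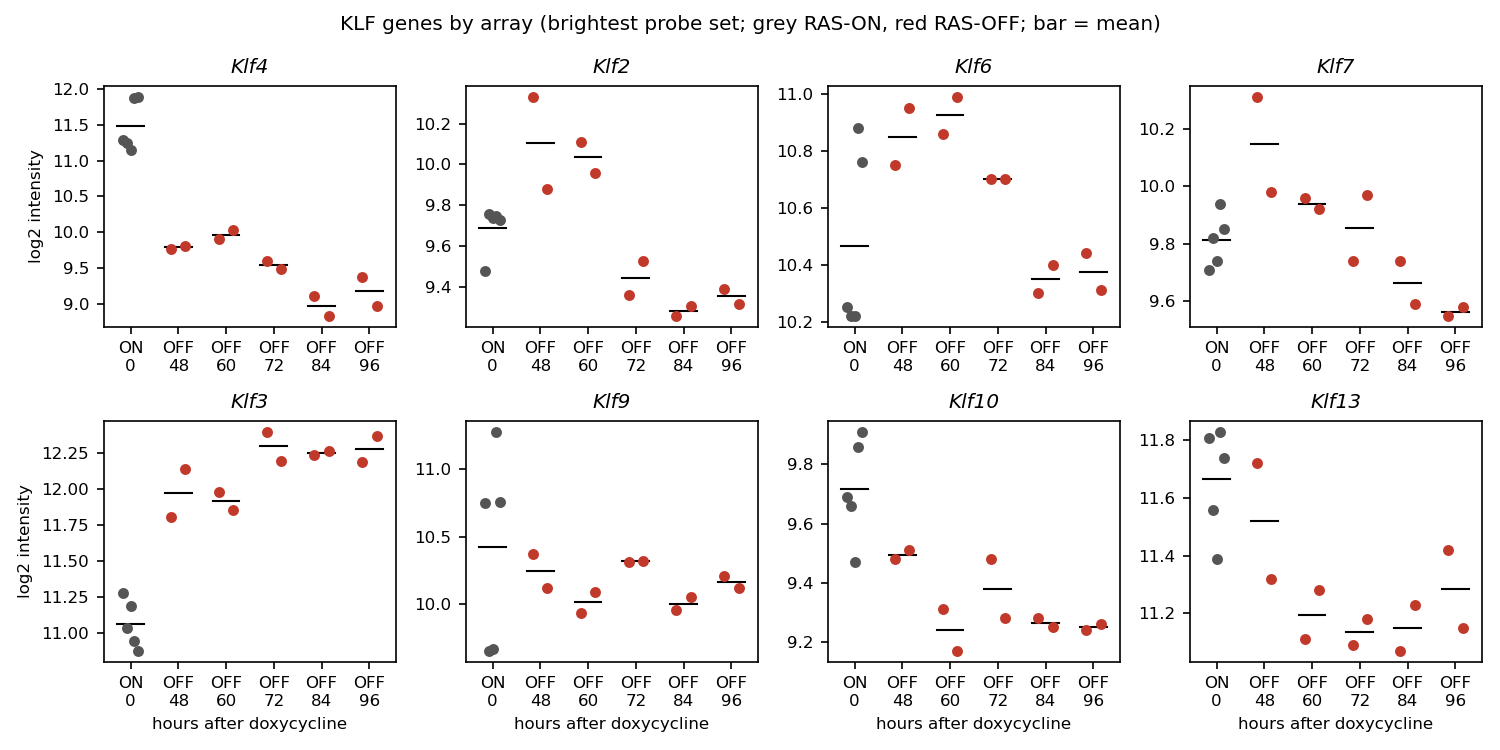
Log2 intensity of each KLF gene (brightest probe set) in every array, RAS-ON at 0 h in grey and RAS-OFF by hours after doxycycline in red, with a bar at each group mean. Klf4 lies below and Klf3 above the RAS-ON arrays in all 10 RAS-OFF arrays, while the Klf9 values of RAS-ON arrays span 9.65 to 11.28, which takes in all RAS-OFF values.

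Klf4 and Klf3 were the 2 members with no overlap between the groups, and their promoters are shown here from the RefSeq table for build GRCm38.p6. Each sequence is the 250 bases before the annotated gene start, read 5' to 3' on the gene's strand, at chr4:55532476-55532725 (minus strand) for Klf4 and chr5:64803271-64803520 (plus strand) for Klf3. Capitals mark the GC box, GGGCGG on either strand, an element that SP and KLF proteins bind.
Klf4: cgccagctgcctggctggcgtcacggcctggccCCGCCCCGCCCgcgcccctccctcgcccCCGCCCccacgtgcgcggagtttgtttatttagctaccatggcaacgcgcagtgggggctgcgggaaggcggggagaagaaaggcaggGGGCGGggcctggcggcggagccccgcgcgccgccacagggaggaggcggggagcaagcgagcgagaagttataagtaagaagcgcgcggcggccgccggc
Klf3: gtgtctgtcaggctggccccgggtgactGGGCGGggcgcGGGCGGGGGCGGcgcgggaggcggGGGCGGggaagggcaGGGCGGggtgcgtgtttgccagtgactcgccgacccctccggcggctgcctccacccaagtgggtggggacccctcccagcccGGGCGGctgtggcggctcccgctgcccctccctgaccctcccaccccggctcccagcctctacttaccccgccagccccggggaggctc
The window of Klf4 holds 4 GC boxes and that of Klf3 holds 6. At least 1 GC box stands in the windows of 6 of the 7 members with an entry (Klf2, Klf3, Klf4, Klf6, Klf7 and Klf13) and in 32.7% of the 32851 windows of the table. The E-box CACGTG stands in the windows of Klf4 and Klf6 (6.02% of all), and the AP-1 motif TGANTCA in that of Klf9 (6.75% of all). The CACCC box CCACACCC (3.2% of all), the GATA motif AGATAAG (2.74%), the ETS motif CCGGAAG (6.91%), the cyclic AMP response element TGACGTCA (1.55%), the TATA box TATAAA (12.4%) and the SRF CArG box (1.47%) matched in none of the 7 windows on either strand. The CACCC box was searched only as CCACACCC, and the shorter CACCC does stand in the Klf3 window shown. A match is a description and not a site of binding.

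Klf4 is an activator of monocyte differentiation and one of the factors that reprogram cells to pluripotency, and it fell at every time. Its log2 intensities were 11.29, 11.24, 11.15, 11.87 and 11.89 in the RAS-ON arrays at 0 h, then 9.77 and 9.81 at 48 h, 9.90 and 10.03 at 60 h, 9.60 and 9.49 at 72 h, 9.11 and 8.83 at 84 h, and 9.38 and 8.97 at 96 h. The highest RAS-OFF value, 10.03 at 60 h, lay below the lowest RAS-ON value of 11.15. RAS-OFF arrays averaged 9.49 ± 0.41 (SD, n = 10) and RAS-ON arrays 11.49 ± 0.36 (SD, n = 5), a change of -1.998 ± 0.124, or 3.99-fold lower (adjusted p = 6.70e-09, limma). The 2 RAS-ON sets differ here: the change was -1.74 against arrays 1 to 3 and -2.39 against arrays 4 and 5.

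The other Klf4 probe set, 1417395_at, repeated the fall. It lay between 8.70 and 9.65 in RAS-OFF arrays and between 10.70 and 11.66 in RAS-ON arrays, a change of -1.96 ± 0.14 (adjusted p = 6.84e-08). By time, the changes of Klf4 were -1.70, -1.52, -1.94, -2.52 and -2.31 at 48, 60, 72, 84 and 96 h, with adjusted p between 1.33e-07 and 3.43e-05. Within the RAS-OFF arrays the fitted slope was -0.22 ± 0.05 per 12 h (adjusted p = 0.00892). This slope was no longer called without RAS-OFF 96 h replicate 2 (-0.18) or without the 48, 84 and 96 h replicates 1 together (-0.28). On 1417395_at the slope was -0.19 per 12 h (adjusted p = 0.0362), called in 8 of 18 alternatives. The F test among RAS-OFF times was not called on the brightest probe set (adjusted p = 0.0523). In order of group means, RAS-ON came highest, followed by 60, 48, 72, 96 and 84 h, and of these neighbours the values overlapped between 96 and 84 h alone.

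Markers of monocytes moved with Klf4. Of 8 measured monocyte markers 6 fell and 2 did not pass the test, with a median change of -0.83 against -0.04 over all genes. F13a1, a coagulation factor subunit of monocytes, fell by 2.21, Cx3cr1, a chemokine receptor of patrolling monocytes, fell by 1.32, and Cd68, a lysosomal protein, fell by 1.03 on the log2 scale. The summed intensity of the 8 was 12748 to 19493 in RAS-OFF arrays and 24599 to 34283 in RAS-ON arrays, with no overlap. Of 9 myeloid leukemia markers 2 rose and 4 fell. Cebpa was at -1.48, Mpo at -1.32 and Spi1 at -1.11, while Csf3r rose by 0.74 and Ptprc by 0.17. Hoxa9, Meis1 and Itgam did not pass the test. The sum was 19606 to 27575 in RAS-OFF arrays against 32723 to 33730 in RAS-ON arrays. A sum is weighted to bright genes, such as Mpo at 12.59 in RAS-OFF and 13.90 in RAS-ON arrays. The part of these markers in the change of Klf4 was not tested.

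Klf2 is an activator known for quiescence and trafficking of T cells and for the response of endothelium to flow, and its sign changed with time. Its single probe set read 9.48, 9.76, 9.74, 9.75 and 9.73 in the RAS-ON arrays at 0 h, then 10.33 and 9.88 at 48 h, 10.11 and 9.96 at 60 h, 9.36 and 9.53 at 72 h, 9.26 and 9.31 at 84 h, and 9.39 and 9.32 at 96 h. All 4 arrays at 48 and 60 h lay above every RAS-ON array, and all 4 at 84 and 96 h lay below every one. The mean over all RAS-OFF times, 9.65 ± 0.39 (SD, n = 10), differed from the RAS-ON mean of 9.69 ± 0.12 (SD, n = 5) by -0.05 ± 0.07 (adjusted p = 0.631, limma).

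Klf2 rose by 0.41 ± 0.11 at 48 h (adjusted p = 0.0148) and by 0.35 at 60 h (adjusted p = 0.0364). At 72 h the change was -0.25 (adjusted p = 0.115), and Klf2 then fell by 0.41 at 84 h (adjusted p = 0.0109) and by 0.34 at 96 h (adjusted p = 0.0298). These comparisons share the same RAS-ON arrays. The calls at single times rest on few arrays: without RAS-OFF 48 h replicate 1 the 48 h change was 0.18 (adjusted p = 0.344), and the calls at 60, 84 and 96 h were each lost when either array of that time was left out. The 60 h call was also lost without RAS-ON replicate 1 (adjusted p = 0.0683), and the 96 h call without RAS-ON replicate 2 (adjusted p = 0.0533). The slope within the RAS-OFF arrays, -0.23 ± 0.03 per 12 h, does not depend on the RAS-ON level and was called in all 24 alternative settings (adjusted p = 0.000334 here, 0.000235 to 0.0323 elsewhere). The difference among the 5 RAS-OFF times was called as well (F test, adjusted p = 0.00397), as it was in 5.45% of all genes. A call that was higher at 48 h and lower at 84 h occurred in 20 genes, 0.110% of all, a criterion chosen after the values of Klf2 were seen. By group mean the order was 48, 60, 0, 72, 96 and 84 h, and neighbouring values overlapped except between 60 and 0 h and between 96 and 84 h.

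MEF2 factors, activated by the kinase cascade MEK5 and ERK5, are the known activators of Klf2 transcription in endothelium. The stretch of the Klf2 promoter with the only MEF2 motif found among the members is shown, at chr8:72318929-72318968 on the plus strand of GRCm38.p6, with the motif in capitals at -118 to -109 from the gene start.
Klf2: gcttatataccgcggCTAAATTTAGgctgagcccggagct
A MEF2 motif stands in 2.92% of the 32851 windows. Of the 8 genes listed for MEK5, ERK5 and MEF2, 1 rose and 5 fell, with a median change of -0.30 against -0.04 over all genes. Mef2c fell by 1.60, Mef2d by 0.76 and Map2k5, which encodes MEK5, by 0.61 on the log2 scale, while Map3k2, an upstream kinase, rose by 0.43. Mef2c lay at 10.29 to 10.76 in the 4 RAS-OFF arrays at 48 and 60 h, when Klf2 was higher, against 11.59 to 11.90 in RAS-ON arrays, and its slope was -0.23 per 12 h (adjusted p = 0.000181). The part of these genes in the time course of Klf2 was not tested. Of 5 measured genes known as KLF2 targets or partners in lymphocytes, 2 rose and 1 fell, with a median of -0.03: the transcription factor Foxo1 rose by 0.37, the cytokine receptor Il7r rose by 0.29, and the integrin Itgb7 fell by 0.93. S1pr1, the sphingosine phosphate receptor that KLF2 activates in T cells, changed by -0.15 (adjusted p = 0.236).

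Klf6, an immediate-early activator that is induced by many stimuli, gave different results on its 5 probe sets. The brightest, 1433508_at, read 10.25, 10.22, 10.22, 10.88 and 10.76 in the RAS-ON arrays at 0 h, then 10.75 and 10.95 at 48 h, 10.86 and 10.99 at 60 h, 10.70 and 10.70 at 72 h, 10.30 and 10.40 at 84 h, and 10.44 and 10.31 at 96 h. The RAS-ON arrays divide, with arrays 1 to 3 below all 10 RAS-OFF arrays and arrays 4 and 5 among the highest. The change of 0.17 ± 0.11 (adjusted p = 0.194) became a rise of 0.41 against arrays 1 to 3 (adjusted p = 8.59e-05) and was -0.18 against arrays 4 and 5 (adjusted p = 0.0742). The direction against RAS-ON thus turns with the RAS-ON set used. By group mean the order was 60, 48, 72, 0, 96 and 84 h, and only 48 and 72 h, among neighbours, did not overlap.

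Within the RAS-OFF arrays Klf6 declined with time. On 1433508_at the slope was -0.15 ± 0.04 per 12 h (adjusted p = 0.0294), called in 17 of 24 alternatives. Its standard error also carries the RAS-ON spread, an SD of 0.325 against a residual SD of 0.092 in RAS-OFF arrays. With arrays 1 to 3 alone as RAS-ON, the adjusted p of the slope was 0.000289 (limma), the lowest of the 24 alternatives. The call was lost without either 48 h array, 60 h replicate 2, 84 h replicate 1 or either 96 h array. Over the alternatives the slope ran from -0.24 to -0.13. The F test among RAS-OFF times was not called on 1433508_at (adjusted p = 0.207). Probe set 1418280_at lay between 9.67 and 10.22 in the RAS-ON arrays at 0 h, and read 10.10 and 9.64 at 48 h, 10.35 and 9.94 at 60 h, 9.33 and 9.75 at 72 h, 8.42 and 9.18 at 84 h, and 8.28 and 8.19 at 96 h. Up to 60 h its values lay within or just beside the RAS-ON range, and at 84 and 96 h all 4 lay below it. It fell by 1.17 ± 0.21 at 84 h (adjusted p = 0.000644) and fell by 1.73 ± 0.21 at 96 h (adjusted p = 2.19e-05), with a slope of -0.46 ± 0.06 per 12 h (adjusted p = 0.00031) that was called in all 18 alternatives run on probe sets. Without RAS-OFF 96 h replicate 1, the array with the Gapdh excess, the 96 h change was -1.78 (adjusted p = 0.000648). Probe set 1427742_a_at fell by 0.76 at 96 h (adjusted p = 0.00697), which was not called without that array (-0.47, adjusted p = 0.174). Its slope was -0.26 (adjusted p = 0.00457), and 1447448_s_at had a slope of -0.22 (adjusted p = 0.0113). The dim 1459718_x_at had a slope of -0.10 (adjusted p = 0.128). Which transcripts of Klf6 each probe set reads was not analysed here.

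Klf7, an activator best known from neurons and also expressed in blood progenitors, was higher at 48 h and declined after that. Its brightest probe set, 1419354_at, read 9.71, 9.82, 9.74, 9.94 and 9.85 in the RAS-ON arrays at 0 h, then 10.31 and 9.98 at 48 h, 9.96 and 9.92 at 60 h, 9.74 and 9.97 at 72 h, 9.74 and 9.59 at 84 h, and 9.55 and 9.58 at 96 h. On this probe set both 48 h arrays lay above every RAS-ON array, and both 96 h arrays lay below every one. Over all times the change was 0.02 ± 0.06 (adjusted p = 0.793), while the mean of its 4 probe sets gave a rise of 0.19 (adjusted p = 0.0164). Klf7 rose by 0.34 ± 0.10 at 48 h (adjusted p = 0.0198), which was not called without RAS-OFF 48 h replicate 1 (0.17, adjusted p = 0.345) or when only arrays 4 and 5 stood for RAS-ON (0.25, adjusted p = 0.116), and at 96 h the change was -0.24 (adjusted p = 0.0664). The slope was -0.14 ± 0.03 per 12 h (adjusted p = 0.0023), called in 23 of 24 alternatives.

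All 4 Klf7 probe sets had a called negative slope, from -0.10 to -0.14 per 12 h. They differed against RAS-ON: 1419355_at rose by 0.32 (adjusted p = 0.00825) and 1419356_at by 0.28 (adjusted p = 0.0079) over all times, while 1449439_at changed by 0.13 (adjusted p = 0.129). With only arrays 4 and 5 as RAS-ON, 1419355_at gave 0.10 (adjusted p = 0.436) and 1419356_at gave 0.09 (adjusted p = 0.381). At 96 h, 1419355_at, 1419356_at and 1449439_at changed by 0.04, -0.02 and 0.06, none called (adjusted p = 0.853, 0.893 and 0.688, limma). The position below RAS-ON at 96 h was thus seen on the brightest probe set only. By group mean of the brightest probe set the order was 48, 60, 72, 0, 84 and 96 h, with no overlap between 48 and 60 h or between 84 and 96 h.

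Within the RAS-OFF arrays 4 of the 8 genes had a called slope, all negative: Klf2, Klf4, Klf6 and Klf7. The slopes of Klf9, Klf10 and Klf13 were -0.02, -0.05 and -0.05 per 12 h and that of Klf3 was 0.09, all uncalled, and whether slopes differ between the genes was not tested. Among all genes 8.75% had a called negative slope and 5.00% a called positive one, 13.7% in all. Over the probe sets, 11 of 30 had a called negative slope and 1 a called positive one, against 8.42% called lower and 12.3% called in either direction among all 34945, and probe sets of 1 gene are not independent. Leaving out RAS-OFF 96 h replicate 2 left 2 of the 8 genes with a called slope.

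**Figure D2:**
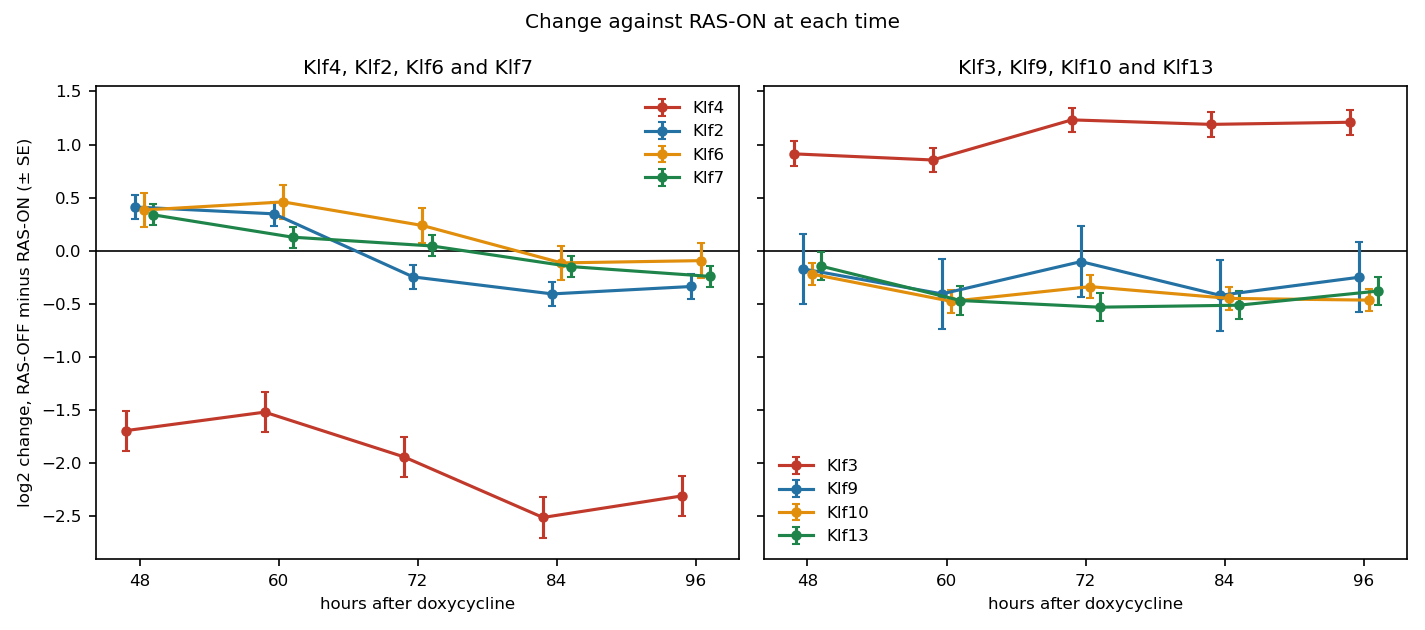
Change of each KLF gene at each time against the 5 RAS-ON arrays, as log2 difference with its standard error from the fit, by hours after doxycycline. Klf2 is at 0.41 at 48 h and at -0.41 at 84 h, Klf4 lies at -1.52 or lower and Klf3 at 0.85 or higher at every time.

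Counted by time, 3 members were called higher and 1 lower at 48 h, where 13.7% of all genes were called higher and 13.7% lower (27.4% in either direction). At 60 h the counts were 2 higher and 3 lower, with 11.5% of all genes higher and 14.2% lower (25.8% in all). At 72 h they were 1 higher and 3 lower, with 13.4% and 18.3% of all genes (31.8%). At 84 h they were 1 higher and 4 lower, with 21.8% of all genes lower (36.8% in all), and at 96 h again 1 higher and 4 lower, with 16.7% and 20.9% (37.6%). Klf3 and Klf4 were called at every time. Klf10 and Klf13 joined the lower calls from 60 h on, and Klf2 was among the higher calls at 48 and 60 h and among the lower calls at 84 and 96 h.

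Klf3, the CtBP-recruiting repressor, rose at every time. Its brightest probe set, 1454666_at, read 11.28, 11.04, 11.19, 10.95 and 10.88 in the RAS-ON arrays at 0 h, then 11.81 and 12.14 at 48 h, 11.98 and 11.86 at 60 h, 12.40 and 12.20 at 72 h, 12.24 and 12.27 at 84 h, and 12.19 and 12.37 at 96 h. The lowest RAS-OFF value, 11.81, exceeded the highest RAS-ON value of 11.28. RAS-OFF arrays averaged 12.15 ± 0.20 (SD, n = 10) and RAS-ON arrays 11.07 ± 0.16 (SD, n = 5), a change of 1.08 ± 0.08, or 2.11-fold higher (adjusted p = 2.65e-08, limma). The changes were 0.91, 0.85, 1.23, 1.19 and 1.21 at 48, 60, 72, 84 and 96 h, with adjusted p between 1.37e-06 and 7.78e-05. The slope was 0.09 per 12 h (adjusted p = 0.0631). By group mean the order was 72, 96, 84, 48, 60 and 0 h, and neighbours overlapped except between 84 and 48 h and between 60 and 0 h.

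Of the 7 Klf3 probe sets, 5 rose and 2 did not pass the test. 1429360_at rose by 0.93 ± 0.06 (adjusted p = 3.91e-08), again with no overlap between the groups. Its slope of 0.09 per 12 h was called (adjusted p = 0.0365, limma), as it was in 11 of 18 alternatives. Probe sets 1442920_at, 1421604_a_at and 1441200_at rose by 0.71, 0.66 and 0.51. Probe set 1431630_a_at changed by 0.07 (adjusted p = 0.614), and 1458487_at, below the array medians, by 0.02 (adjusted p = 0.776). The mean of the 7 gave 0.57 (adjusted p = 2.76e-06), which is lower than the brightest one alone by over 1.5 times.

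Markers of the erythroid lineage moved with Klf3. All 8 measured erythroid markers rose, with a median change of 1.64: the membrane skeleton gene Epb42 by 2.43, the carbonic anhydrase Car1 by 2.39 and the erythroid membrane protein Ermap by 1.76. Their summed intensity was 63503 to 80409 in RAS-OFF arrays and 24960 to 30067 in RAS-ON arrays. Klf1, the erythroid KLF and an activator of Klf3 in red cell precursors, is in that list and rose by 1.67 ± 0.13 (adjusted p = 4.90e-08). All 6 megakaryocyte markers rose as well, with a median of 0.55, led by Itgb3 at 0.68, Vwf at 0.65 and Gp1bb at 0.59. Their sum was 13940 to 16282 in RAS-OFF arrays and 8774 to 11797 in RAS-ON arrays. The part of these cells in the rise of Klf3 was not tested.

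Klf9, a SIN3-type repressor induced by glucocorticoid and thyroid hormone, did not pass the test in either direction. Its brightest probe set, 1456341_a_at, read 10.75, 9.65, 9.66, 11.28 and 10.76 in the RAS-ON arrays at 0 h, then 10.37 and 10.12 at 48 h, 9.93 and 10.09 at 60 h, 10.31 and 10.32 at 72 h, 9.95 and 10.05 at 84 h, and 10.21 and 10.12 at 96 h. RAS-ON arrays 1, 4 and 5 lay above every RAS-OFF array and arrays 2 and 3 below every one. The change was -0.27 ± 0.22 (adjusted p = 0.326), with an SD of 0.15 over the 10 RAS-OFF arrays and 0.73 over the 5 RAS-ON arrays. That RAS-ON SD is at percentile 99.9 of all genes, whose median is 0.126.

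The choice of RAS-ON arrays sets the result for Klf9. Against arrays 4 and 5 the change was -0.87 (adjusted p = 3.65e-05), and against arrays 1 to 3 it was 0.13 (adjusted p = 0.573). Probe set 1428288_at showed the same division at 10.48, 9.44, 9.35, 10.89 and 10.46 in the RAS-ON arrays, with RAS-OFF arrays between 9.92 and 10.25. Of the 7 probe sets 1 was called: 1436763_a_at, a dim one, fell by 0.62 (adjusted p = 0.0193), which was not called without RAS-ON replicate 1 (adjusted p = 0.0675) or replicate 4 (adjusted p = 0.0577). By group mean the order was 0, 72, 48, 96, 60 and 84 h, and neighbours overlapped except between 96 and 60 h.

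Klf10, a SIN3-type repressor known as the TGF-beta inducible early gene, fell. Its single probe set read 9.69, 9.66, 9.47, 9.86 and 9.91 in the RAS-ON arrays at 0 h, then 9.48 and 9.51 at 48 h, 9.31 and 9.17 at 60 h, 9.48 and 9.28 at 72 h, 9.28 and 9.25 at 84 h, and 9.24 and 9.26 at 96 h. Of the RAS-OFF arrays 7 of 10 lay below every RAS-ON array, and both at 48 h lay within the RAS-ON range. RAS-OFF arrays averaged 9.33 ± 0.12 (SD, n = 10) and RAS-ON arrays 9.72 ± 0.18 (SD, n = 5), a change of -0.39 ± 0.07, or 1.31-fold lower (adjusted p = 0.000274, limma). The size moved with the RAS-ON set, from -0.28 against arrays 1 to 3 (adjusted p = 0.00311) to -0.56 against arrays 4 and 5 (adjusted p = 2.93e-05), and the fall was called in all 24 alternatives. The changes were -0.22 (adjusted p = 0.135), -0.48 (adjusted p = 0.00366), -0.34 (adjusted p = 0.0236), -0.45 (adjusted p = 0.00364) and -0.47 (adjusted p = 0.0028) at 48, 60, 72, 84 and 96 h. The 72 h call was lost without RAS-OFF 72 h replicate 2 (adjusted p = 0.244), and the 60 h call without RAS-OFF 60 h replicate 2 (adjusted p = 0.0671). By group mean the order was 0, 48, 72, 84, 96 and 60 h, and of neighbours only 48 and 72 h did not overlap.

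Genes of TGF-beta signalling were counted beside Klf10. Of 10 measured, 1 rose, 5 fell and 4 did not pass the test, with a median change of -0.16 against -0.04 over all genes. A called negative slope within the RAS-OFF arrays was found in 8 of the 10, against 8.75% of all genes. The list was chosen with earlier results of these data known, so this count is a description only. Klf10 itself had no called slope (-0.05 per 12 h, adjusted p = 0.323, limma). The ligand Tgfb1 fell by 1.19, the co-repressor Tgif1 by 0.55 and the signal transducer Smad2 by 0.41. The receptor gene Tgfbr2 changed by -0.04 (adjusted p = 0.493). The part of these genes in the fall of Klf10 was not tested.

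Klf13, a SIN3-type factor that drives late expression of the chemokine gene Ccl5 in T cells, fell. Its brightest probe set, 1436316_at, read 11.81, 11.56, 11.39, 11.83 and 11.74 in the RAS-ON arrays at 0 h, then 11.72 and 11.32 at 48 h, 11.11 and 11.28 at 60 h, 11.09 and 11.18 at 72 h, 11.07 and 11.23 at 84 h, and 11.42 and 11.15 at 96 h. Below every RAS-ON array lay 8 of the 10 RAS-OFF arrays, the exceptions being 1 array each at 48 and 96 h. RAS-OFF arrays averaged 11.26 ± 0.20 (SD, n = 10) and RAS-ON arrays 11.67 ± 0.19 (SD, n = 5), a change of -0.41 ± 0.09, or 1.33-fold lower (adjusted p = 0.0012, limma). Against RAS-ON arrays 1 to 3 the change was -0.33 (adjusted p = 0.0143) and against arrays 4 and 5 it was -0.52 (adjusted p = 0.00117), and the fall was called in all 24 alternatives.

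The changes of Klf13 were -0.15 (adjusted p = 0.433), -0.47 (adjusted p = 0.0164), -0.53 (adjusted p = 0.0062), -0.51 (adjusted p = 0.00662) and -0.38 (adjusted p = 0.0343) at 48, 60, 72, 84 and 96 h. The call at 60 h was lost without RAS-OFF 60 h replicate 1 (adjusted p = 0.188), that at 72 h without RAS-OFF 72 h replicate 1 (adjusted p = 0.0815), that at 84 h without RAS-OFF 84 h replicate 1 (adjusted p = 0.0889), and that at 96 h without RAS-OFF 96 h replicate 2 (adjusted p = 0.311) or any of RAS-ON replicates 1, 4 and 5 (adjusted p of 0.0678, 0.0588 and 0.0558). By group mean the order was 0, 48, 96, 60, 84 and 72 h, and all neighbours overlapped. Probe set 1432543_a_at fell by 0.37 (adjusted p = 0.0352), a call that held in 7 of 18 alternatives and was -0.10 against RAS-ON arrays 1 to 3 (adjusted p = 0.42). The dim 1456030_at changed by -0.06 (adjusted p = 0.394).

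Across all 30 probe sets 7 rose, 7 fell and 16 did not pass the test, while 19.3% of all 34945 probe sets were called higher and 26.0% lower, 45.4% in all. Those that rose are 5 of Klf3 and 2 of Klf7, and those that fell are both of Klf4, 2 of Klf13, and 1 each of Klf6, Klf9 and Klf10. No gene had called probe sets in both directions in this comparison.

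**Figure D3:**
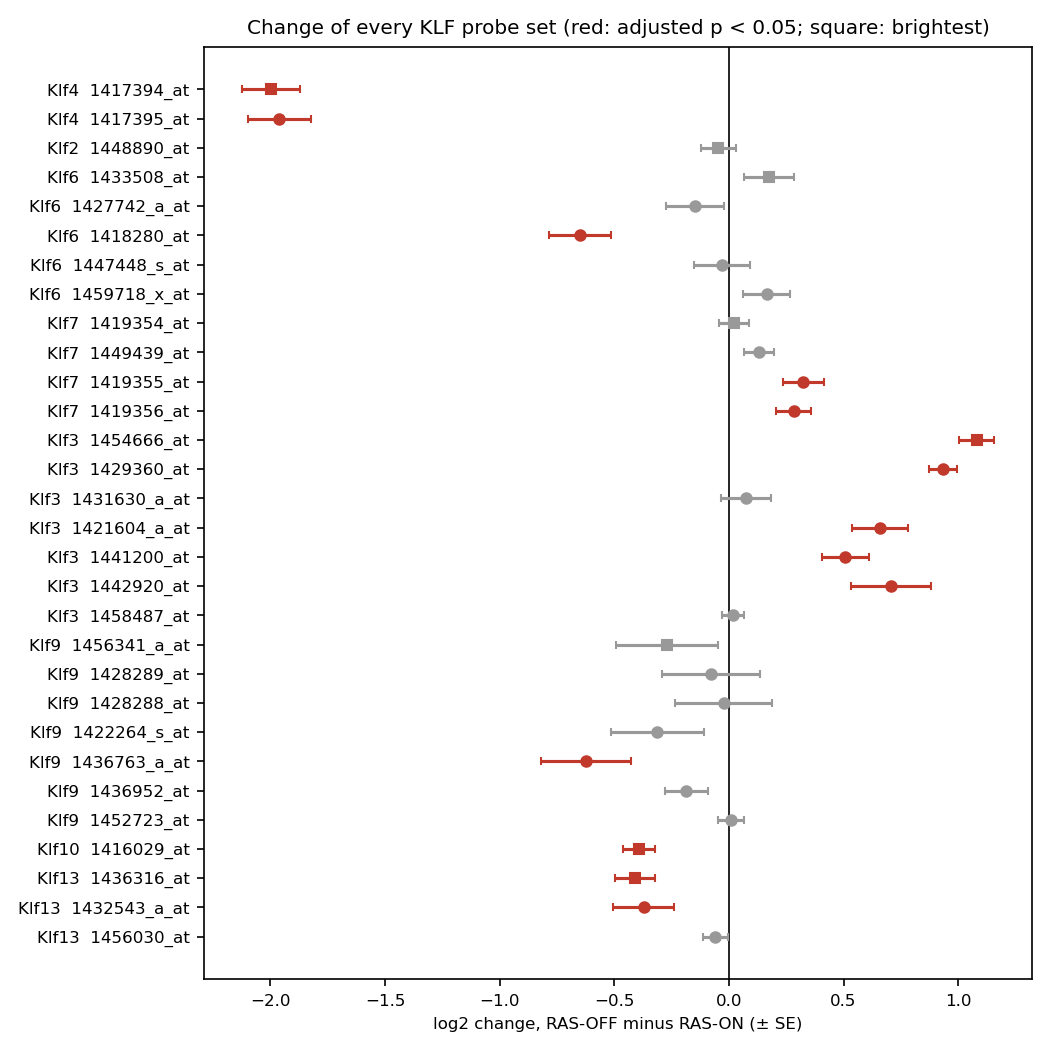
Change of each of the 30 KLF probe sets, RAS-OFF minus RAS-ON, as log2 difference with its standard error, called ones in red and the brightest of a gene as a square. The Klf4 probe sets lie at -1.998 and -1.96, while those of Klf3 run from 0.02 to 1.08 and those of Klf6 from -0.65 to 0.17.

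The other family members and the proteins that KLF factors recruit were read from the same fit. Of 8 other KLF genes 3 rose and 5 did not pass the test, with a median change of 0.02 against -0.04 over all genes. Klf1 led with 1.67, followed by Klf5, an activator of proliferation, at 0.90 (adjusted p = 5.82e-05) and Klf16, a SIN3-type member, at 0.32 (adjusted p = 0.00272). Klf5 also had a called negative slope within the RAS-OFF arrays (-0.18 per 12 h, adjusted p = 0.0453). Of 7 measured SP genes, whose proteins share the GC box, 3 rose and 2 fell: Sp4 rose by 0.65 and Sp3 by 0.61, and the dim Sp7 fell by 0.23. Klf8, Sp2 and Sp9 were not analysed here.

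Of 11 co-repressor and co-activator genes 3 rose, 4 fell and 4 did not pass the test, with a median of 0.08. The CtBP genes, whose proteins Klf3 recruits, went opposite ways: Ctbp2 fell by 0.69 (adjusted p = 3.53e-06) and Ctbp1 rose by 0.36 (adjusted p = 3.77e-05). Of the SIN3 genes, Sin3b fell by 0.51 (adjusted p = 0.000127) and Sin3a changed by -0.08 (adjusted p = 0.208). The acetyltransferase genes differed likewise, with Kat2b at 0.70 (adjusted p = 1.97e-06) and Kat2a at -0.60 (adjusted p = 2.79e-06).

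The remaining marker lists also moved between the groups. Of 8 late neutrophil markers 6 rose, led by Mmp8 at 2.16, Cxcr2 at 1.81 and Mmp9 at 1.20, with sums of 99344 to 127390 in RAS-OFF arrays and 83640 to 98972 in RAS-ON arrays. Of 10 red pulp macrophage markers 8 rose and 2 fell. The rises were led by Timd4 at 1.21, Slc40a1 at 1.03 and Vcam1 at 1.02, and those that fell were Hmox1 at -0.49 and Adgre1 at -0.25. Sums were 17041 to 22238 in RAS-OFF arrays and 11578 to 16119 in RAS-ON arrays. Of 10 endothelium and stroma markers 7 rose and 1 fell. The rises were led by Cxcl12 at 1.58, Stab2 at 1.18 and Pdgfrb at 0.94, and the endothelial gene Pecam1 fell by 0.87 (adjusted p = 2.55e-07, limma). Sums were 13130 to 18754 in RAS-OFF arrays and 11617 to 12286 in RAS-ON arrays.

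Among lymphocyte markers, 2 of 6 for T cells, 2 of 5 for B cells and 0 of 5 for natural killer cells averaged below the array medians. Of 6 T cell markers 2 rose and 1 fell (Cd3d at 1.26, Cd8a at 0.22 and Cd5 at -0.55). Cd3e, Cd3g and Cd4, at 0.01, 0.03 and 0.10, did not pass the test. The T cell sums were 1787 to 2578 in RAS-OFF arrays and 1372 to 1608 in RAS-ON arrays. Of 5 B cell markers 1 rose and 4 fell, with Cd79b at -1.41, Cd22 at -0.44 and Pax5 at -0.36, and sums of 1197 to 1540 in RAS-OFF arrays and 1927 to 2019 in RAS-ON arrays. Of 5 natural killer markers 4 rose, with Gzma at 0.94, Ncr1 at 0.69 and Tbx21 at 0.61, and sums of 1450 to 2702 in RAS-OFF arrays and 1158 to 1412 in RAS-ON arrays. The natural killer list had 3 of 5 called negative slopes and the late neutrophil list 5 of 8, against 8.75% of all genes. Intensities have no true zero, so no marker can be said to be absent, and the part of any of these lists in the changes of the KLF genes was not tested.

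**Figure D4:**
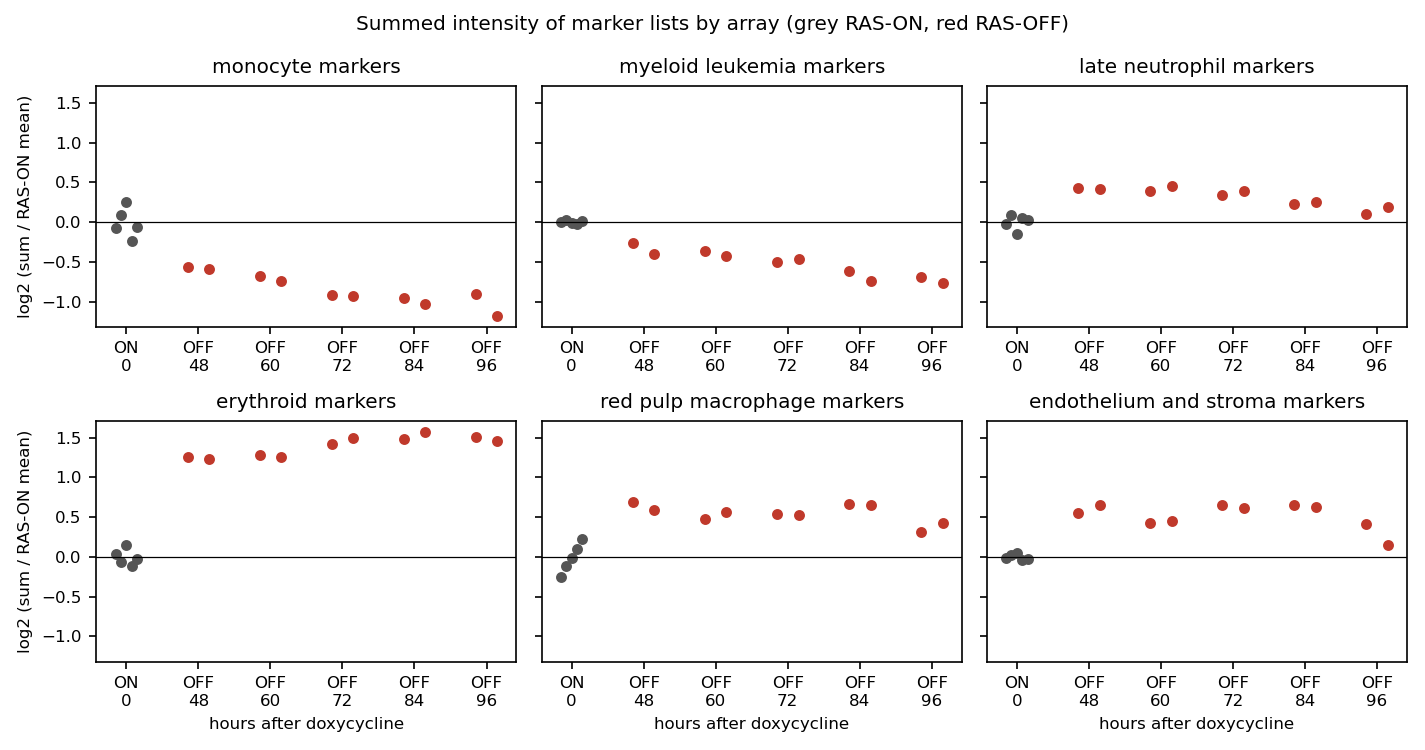
Summed intensity of 6 marker lists in every array as log2 ratio to the RAS-ON mean, RAS-ON at 0 h in grey and RAS-OFF by hours after doxycycline in red. The monocyte and myeloid leukemia sums lie below the RAS-ON arrays in all 10 RAS-OFF arrays and the other 4 lie above. Each sum is weighted to the bright genes of its list.

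The genes whose log2 values follow each KLF gene most closely over the 15 arrays are given as a description, by Pearson correlation, and the 15 arrays share the division into RAS-OFF and RAS-ON. They were Cbfb (0.994) and Tnfrsf13b (0.993) for Klf4, and Tlcd4 (0.989) and Tspan8 (0.988) for Klf3. For the genes with a time course they were Parp6 (0.933) and Aldh3a2 (0.912) for Klf2, Hip1r (0.928) and Sgk1 (0.911) for Klf6, and Slc27a4 (0.936) and Ckap4 (0.901) for Klf7. For the SIN3-type genes they were Pdk4 (0.917) and Arl2bp (0.896) for Klf9, Zhx1 (0.954) and Slc35a3 (0.947) for Klf10, and Lipe (0.923) and Golga2 (0.921) for Klf13.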

How the data were processed

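Total RNA of AML cells from leukemic spleens was amplified, labelled with biotin and hybridised, per the labels' protocols. The authors deposited 1 intensity per probe set and array, made with RMA per the submitters' processing notes. The sources used here give neither version nor settings. RMA gives all arrays similar distributions, so a shift of most genes in 1 direction would not show. The deposited intensities are linear, with array medians between 149.99 and 156.53, and were turned to log2 for all tests. Precision is limited by the number of arrays.

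Of 45101 probe sets, 34945 have 1 symbol in the platform annotation, 932 several, 9160 none, and 64 are controls. Each of 18193 genes was represented by the probe set with the highest mean. Dim genes were kept. Sample titles gave the groups. Tests used limma 3.58.1 (R 4.3.3), fitting a mean to each group, with eBayes and two-sided p-values, adjusted by Benjamini-Hochberg. The contrasts set the average RAS-OFF group and each time against RAS-ON, and added the slope per 12 h over RAS-OFF times and an F test among RAS-OFF times. All arrays share a single spread per gene, so the slope and F tests within the RAS-OFF arrays also carry the RAS-ON spread. SDs over 10 RAS-OFF arrays include differences between times. The code was tested on simulated data.

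Named genes are the 8 members, Nras, up to 3 called genes of each list with the largest change, and the 2 genes most like each member. Map3k2, Tgfbr2, S1pr1, Sin3a, Sin3b, Ctbp1, Ptprc, Tsc22d3 and the RAS-ON values of Pdk4, Fkbp5, Per1 and Nr3c1 were added after values were seen. So were Csf3r, Hoxa9, Meis1, Itgam, Cd3e, Cd3g, Cd4, Pecam1, Hmox1 and Adgre1. The members and lists were chosen with earlier results of these data known. Promoters came from RefSeq (GRCm38.p6) and were matched by symbol for 7 of 8 members; Klf10 is named only. Alternatives were the dimmest 40% of genes left out, the mean of probe sets, median centring, trend and robust eBayes, each array left out, the replicate number as a block and probe sets tested separately. The 2 RAS-ON sets taken alone and the 48, 84 and 96 h replicates 1 left out together were also run. Single KLF probe sets were rerun with each array left out, with the block and with each RAS-ON set, a choice made after seeing the data.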

Additional observations from a re-analysis of the deposited data

Results flagged for a closer look

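In Klf2 the 5 RAS-ON values held 1 that stood apart: replicate 1 at 9.48, with the next at 9.73 and the highest at 9.76. Its gap took 0.907 of the group's range, above the limit of 0.71 for 5 samples (Dixon). This was 1 of 30 probe sets tested so, and chance gives about 1 in 20. Without that array the Klf2 change at 60 h was 0.29 and no longer called (adjusted p = 0.0683, limma).

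The difference among the 5 RAS-OFF times passed the F test in Klf2 (adjusted p = 0.00397, limma) and Klf7 (adjusted p = 0.0369, limma), 2 of the 8 members, against 5.45% of all genes. Klf2 averaged 10.10 at 48 h and 9.28 at 84 h, and Klf7 averaged 10.15 at 48 h and 9.57 at 96 h (n = 2 each). The Klf7 call was kept in 14 of 24 alternatives and the Klf2 call in 23 of 24.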

How the results depend on the processing

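For single genes and probe sets, counting the changes over all times and those time values and slopes that were called or at least 0.3 in size, 1099 values kept their direction and side of the threshold, 64 lost the call, 17 gained it and 8 turned sign. Those that turned, all uncalled changes over all times, were Klf2 with the replicate block (0.0262), Klf6 with the mean of its probe sets (-0.10) and against RAS-ON arrays 4 and 5 (-0.18), Klf9 against RAS-ON arrays 1 to 3 (0.13), and Klf7 in 4 settings: without a single array (-0.00324 without RAS-ON replicate 1 and -0.00995 without the first 48 h array, in a range of -0.00995 to 0.0561 over all arrays), against RAS-ON arrays 4 and 5 (-0.0621) and without the 48, 84 and 96 h replicates 1 together (-0.0223). Smaller uncalled time values and slopes turned in 20 further cases, among them Klf13 at 48 h (0.0521 without 48 h replicate 2) and the Klf9 slope (0.00776 without 48 h replicate 1, 0.00398 without the 3 arrays). The calls of Klf3, Klf4, Klf10 and Klf13 over all times held in 24 of 24 alternatives each.

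With single arrays left out, 8007 to 8825 genes were called over all times, against 8875 with all arrays, and how many were the same genes was not counted. The members called were 4 to 5 over all times, 2 to 5 for the slope and 1 to 3 among times. At 48, 60, 72, 84 and 96 h they were 2 to 5, 3 to 6, 3 to 4, 3 to 5 and 3 to 6. The low ends came without RAS-OFF 96 h replicate 2 for the slope and at 96 h, without replicate 1 at 48 and 84 h, and without either 60 h array at 60 h. Among times 1 member was left without RAS-ON replicate 2, without 48 h replicate 1, or without any 1 array at 60, 84 or 96 h. Without the 48, 84 and 96 h replicates 1 together, the counts were 1 for the slope, 0 among times (limma's F test; 3 at an unadjusted p under 0.05), and 2, 2 and 3 at 48, 84 and 96 h. Beyond the fewer arrays, the cause was not tested. Against RAS-ON arrays 1 to 3 the counts were 4 among times and 3 at 96 h, and against arrays 4 and 5 they were 4 and 8. Among times, separate probe sets gave 1. Testing 34945 probe sets gave 15857 calls in place of 8875 because more features were tested.

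Equal replicate numbers do not pair the arrays: 2 of 15 pairs of groups had deviations correlated above 0.1 (-0.23 to 0.22). With the replicate number as a block, 7970 genes were called, 4 members passed among times, Klf6 rose by 0.40 (adjusted p = 0.00113, limma), and Klf2 lost its calls at 60 h (adjusted p = 0.0507), 84 h (adjusted p = 0.0927) and 96 h (adjusted p = 0.178).

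With 2 arrays per time, calls at single times rest on 1 or 2 arrays and on the RAS-ON set used. Signal over background cannot be judged from the deposited values, which carry no detection calls. Splice forms, cell types and separate animals were not resolved.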

Other observations

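The division of the RAS-ON arrays seen in Klf9 was also present in Per1 and Tsc22d3, from the list of glucocorticoid response genes. Of the 7 listed 1 rose and 2 fell, with a median change of -0.07 against -0.04 over all genes. The receptor gene Nr3c1 rose by 0.37, while Fkbp5, a chaperone of the receptor, fell by 1.10 and the clock gene Per1 by 0.95 on the log2 scale. Per1 read 10.70, 8.70, 8.92, 10.44 and 9.89 in RAS-ON arrays 1 to 5, with RAS-OFF arrays between 8.26 and 9.26. RAS-ON arrays 1, 4 and 5 were thus above all RAS-OFF arrays and arrays 2 and 3 among them. Tsc22d3, which encodes GILZ, read 11.47, 10.28, 10.32, 11.33 and 11.14 in RAS-ON arrays 1 to 5, with RAS-OFF arrays between 10.03 and 11.46. Fkbp5 divided otherwise, at 10.85, 10.44, 10.66, 11.88 and 11.90 in RAS-ON arrays 1 to 5. Nr3c1 went the opposite way, at 10.04, 10.37, 10.34, 10.15 and 10.16 in these arrays. Values by array are not given for the other listed genes.

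Pdk4, a kinase that restrains glucose oxidation and the gene most like Klf9, lay between 5.68 and 6.18 in RAS-OFF arrays and read 6.68, 5.21, 5.05, 8.06 and 8.0 in RAS-ON arrays 1 to 5. Arrays 1, 4 and 5 were high and arrays 2 and 3 low in Klf9, Pdk4, Per1 and Tsc22d3, which were picked for this division after it was seen in Klf9. The SDs of Per1, Fkbp5 and Tsc22d3 over the RAS-ON arrays were 0.893, 0.694 and 0.568, against a median of 0.126 over all genes. What sets these arrays apart is not in the labels and was not tested.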
